A study of Mus musculus with 14 samples.

Results

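RNA-seq of embryonic mouse hippocampus was read for 31 genes that encode proteins of synaptic vesicles and of the release machinery of the nerve terminal, out of 59796 loci in the gene table. The genes were taken from a written list of gene symbols, sorted into 6 roles. The rule itself uses no measured value, but the list was drawn up with earlier results of these data known, and 4 of its genes are among those the study lists as altered in these samples. All 31 were found in the table, 30 as 1 locus and Rims1 as 2, of which the locus with the higher mean was used. Every one of them passed the filter on low values in both lines.

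The study asked which genes of the fetal hippocampus differ between mouse models of Down syndrome and wild-type mice. The 14 libraries were of hippocampi from E16 to E18 embryos with C57BL6 as the wild-type strain: 3 of 189N3 embryos, which carry an extra copy of Dyrk1a, the gene of a protein kinase, on a BAC transgene, 3 of wild-type littermates, 4 of Dp(16)1Yey/+ embryos, in which the stretch of chromosome 16 from Lipi to Zfp295, Dyrk1a included, is duplicated, and 4 of littermates that were wild-type. Replicate numbers start at 0, and the sex of the embryos and whether a library came from 1 embryo are not given in the sources used here. If libraries shared an embryo, the p-values would measure technical spread.

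At a nerve terminal, vesicles loaded with transmitter are held near the membrane by active zone scaffolds, made ready for fusion by priming factors, and fused by SNARE proteins when calcium binds to synaptotagmins. The vesicle membrane is then taken back by dynamin-dependent endocytosis. Most of these genes are known to be switched on as neurons mature, and the fetal hippocampus still holds dividing progenitors. In whole tissue, fewer cells of a type and less RNA per cell cannot be told apart.

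Libraries held between 20809135 and 29098454 fragments, and values are given as fragments divided by 1 size factor per library (scaled fragments), 1 fragment being worth about 1 unit. Dyrk1a was higher in 189N3 mice than in any of their littermates, at 4248, 3938 and 5877 against 2448, 2977 and 2126 scaled fragments. In Dp(16)1Yey/+ mice Dyrk1a overlapped with the littermates, at 4781, 2124, 3600 and 3044 against 2488, 2397, 3171 and 3175. Over 83 genes of the duplicated stretch, the median log2 distance from the littermate mean was 0.68, 0.13, 0.58 and 0.39 in replicates 0 to 3 of Dp(16)1Yey/+, against a range of -0.12 to 0.12 in the littermates, so that replicate 1 lay next to the wild-type range. This measure also varied without the duplication: replicates 0 to 2 of 189N3 stood at -0.08, -0.09 and 0.32 from their own littermates. The littermates of Dp(16)1Yey/+ formed 2 nearly alike pairs, replicates 0 and 1, and replicates 2 and 3. Within these pairs the squared difference of the median gene was 1.65 and 2.03 times that expected from counting noise, and it was 14.8 to 51.3 times that for the remaining pairs within either group of the line. Each pair was kept as 2 libraries, and medians are also given by pair. The SE and p-values of single genes in Dp(16)1Yey/+ thus count every littermate library separately. They would be too small if the libraries of a pair were not independent samples. With each pair averaged into 1 sample no locus was called either, and loci at an unadjusted p under 0.05 numbered 271 in place of 1273 in Dp(16)1Yey/+ and 421 in place of 957 in the difference between the models.

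On GRCm38 in the GENCODE vM21 annotation, none of the 31 genes lies on chromosome 16, the chromosome of the duplicated stretch and of Dyrk1a. Those among the 31 that the study lists as altered are Otof (chr5:30367062-30461932, minus strand), Hap1 (chr11:100347327-100356128, minus strand), Dnm1 (chr2:32308471-32353338, minus strand) and Rph3a (chr5:120940499-121010092, minus strand). The genes whose proteins the study placed in interactions with chromosome 21 proteins are Snap25 (chr2:136713453-136782428, plus strand) and Stx1a (chr5:135023482-135051100, plus strand). Exon bases of 10 of the 31 are shared with another annotated gene, 4 of them with a protein-coding gene of the opposite strand: Syn1 with Araf, Syn2 with Timp4, Rab3a with Mpv17l2 and Unc13a with Colgalt1. Whether strand was used in counting is not stated, so fragments of such partners may be included in these values.

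Per kilobase of exon, the presynaptic genes spanned a wide range in wild-type hippocampus. Syt4, a synaptotagmin of dense-core vesicles, led in both lines, with a mean of 4140 scaled fragments per kb in the littermates of 189N3 and 2530 in those of Dp(16)1Yey/+. Rab3a, the small GTPase of the vesicle surface, followed with 653 and 816 per kb, and Cplx2, a complexin that clamps the SNARE complex, with 568 and 571. At the other end were Vamp1, the vesicle SNARE of spinal cord and brainstem, with 6.56 and 7.9 per kb, and Otof, the calcium sensor known from inner hair cells, with 3.81 and 11.7. The fetal tissue held more transcript of Slc17a6, the vesicular glutamate transporter VGLUT2, than of Slc17a7, or VGLUT1, its main counterpart in the adult hippocampus, with 295 and 321 against 57.6 and 98.1 per kb. Exon length was that of all annotated transcripts of a gene joined, so the order per kb depends in part on the annotation. Snap25 had a mean of 3566 scaled fragments against 1454 of Rab3a in the littermates of 189N3, but 525 against 653 per kb. In the order per kb, 28 of 30 neighbouring genes had ranges over the libraries that overlapped in each line. Syt4 stood clear of Rab3a in both. Syt4, Snap25 and Napb were the 3 genes whose lowest library of the 189N3 line was above the highest of the Dp(16)1Yey/+ line. How many of all loci did so was not counted, so this is not shown to be particular to these genes. Line and time of collection or sequencing cannot be told apart here.

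**Figure D1:**
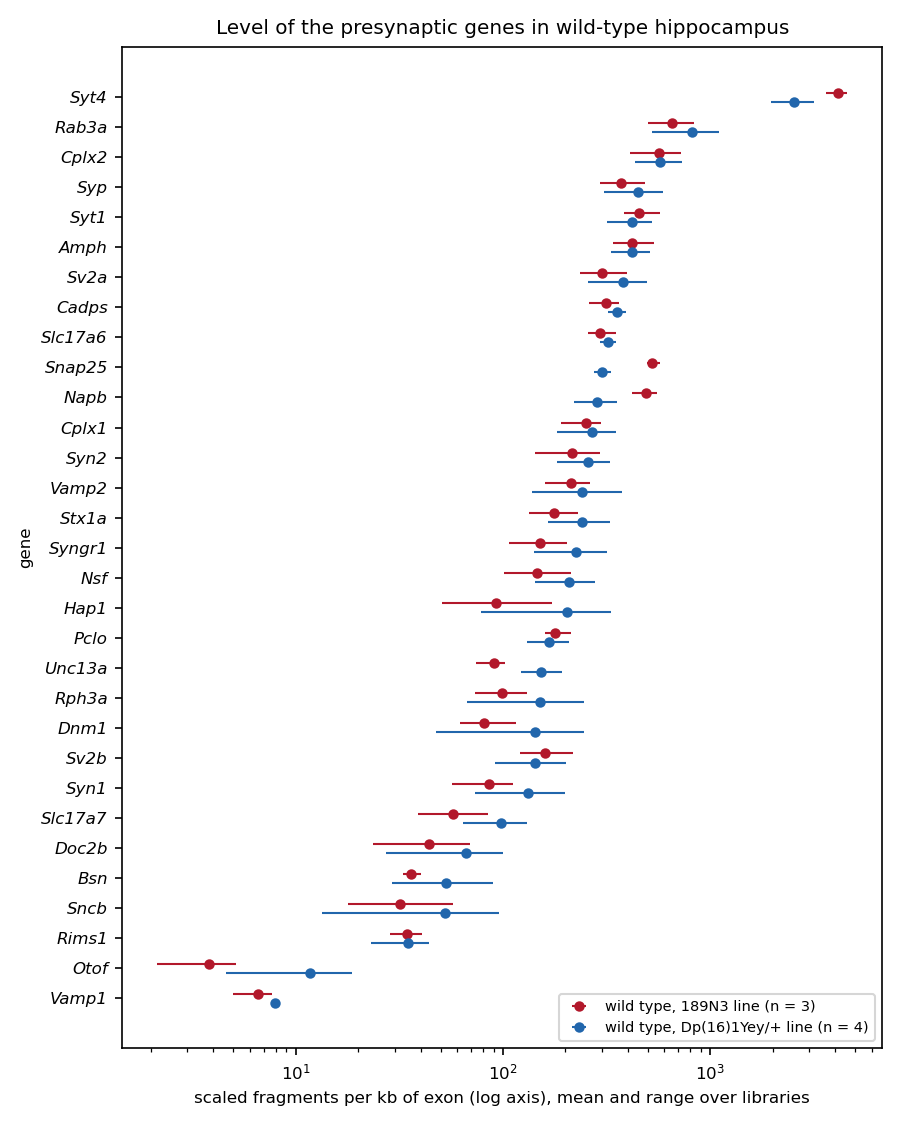
Level of each of the 31 presynaptic genes in wild-type hippocampus, in scaled fragments per kb of exon on a log axis; points are means and bars the range over 3 littermates of 189N3 (red) and 4 littermates of Dp(16)1Yey/+ (blue). Syt4 stands at the top with 4140 and 2530, and Vamp1 and Otof at the bottom with 3.81 to 11.7.

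Many neuronal genes carry an RE1 element, the site through which the repressor REST keeps them silent outside neurons. RefSeq promoter windows of GRCm38.p6, from 250 bases before to 50 after a gene start, were at hand for 26 of the 31 genes, in 36 windows. The RE1 letters TCAGCACC, any 2 bases and GGACAG were searched on both strands with up to 2 mismatches. They occurred in 3 of the 36 windows, against 0.511% of 32851 windows of all genes. These 3 are shown as the windows of presynaptic genes that hold the letters. They belong to Rph3a (chr5:121009489-121009788, minus strand), Slc17a6 (chr7:51621580-51621879, plus strand) and Syn1 (chrX:20920869-20921168, minus strand), and the RE1 letters, each with 1 mismatch, are in capitals.
Rph3a: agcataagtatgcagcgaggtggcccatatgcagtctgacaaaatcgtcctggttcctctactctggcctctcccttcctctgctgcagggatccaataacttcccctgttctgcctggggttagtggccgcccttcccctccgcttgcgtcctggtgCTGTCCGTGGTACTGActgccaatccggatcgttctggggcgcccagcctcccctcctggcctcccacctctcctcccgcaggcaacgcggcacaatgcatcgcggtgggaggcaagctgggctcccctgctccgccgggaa
Slc17a6: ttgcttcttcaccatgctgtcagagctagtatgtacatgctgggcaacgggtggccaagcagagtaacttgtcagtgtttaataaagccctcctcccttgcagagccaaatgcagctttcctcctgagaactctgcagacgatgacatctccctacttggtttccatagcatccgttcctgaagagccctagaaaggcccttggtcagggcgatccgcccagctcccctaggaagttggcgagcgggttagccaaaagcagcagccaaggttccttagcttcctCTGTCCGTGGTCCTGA
Syn1: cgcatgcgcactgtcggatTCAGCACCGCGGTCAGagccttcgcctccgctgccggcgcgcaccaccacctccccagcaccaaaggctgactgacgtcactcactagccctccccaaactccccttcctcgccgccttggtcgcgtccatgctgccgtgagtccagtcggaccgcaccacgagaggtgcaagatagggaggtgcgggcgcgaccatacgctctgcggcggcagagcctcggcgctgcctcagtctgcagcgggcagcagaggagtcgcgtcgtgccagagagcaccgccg
The match began 92 bases before the start in Rph3a, at base 35 of the transcript in Slc17a6 and 231 bases before the start in Syn1. The cAMP response element TGACGTCA was found in 1 of the 36 windows, that of Syn1, against 1.79% of all windows. Its shorter form TGACG, which lies within it, was in 9 of 36 windows (25.0%), against 20.8% of all. Such matches describe the letters only.

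None of the 31 genes passed the test in either model (limma on log2(value + 1), adjusted p under 0.05 by the Benjamini-Hochberg method). The same held for the whole table: 0 of 35899 loci (0%) were called in 189N3 and 0 of 36024 (0%) in Dp(16)1Yey/+, with 672 and 1273 loci at an unadjusted p under 0.05. On the recovered fragments edgeR also called 0 in each model, and DESeq2 called 15 and 8, no presynaptic gene among them. The study, with the Cufflinks pipeline, lists altered genes in both models at a false discovery rate under 0.05. That pipeline was not rerun, so its list and the calls here come from different tests and differ. None of the 31 genes had groups that did not overlap, and of all loci 4.98% did in 189N3 and 2.45% in Dp(16)1Yey/+. For a list of this length, none is close to these shares. A p that misses the threshold does not show that a gene was unaltered.

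Of the 31 genes, 28 had a negative log2 fold change and 3 a positive one in Dp(16)1Yey/+ hippocampus, with a median of -0.40, where all loci tested had a median of 0.03 and 45.1% were negative. Among named loci, 57.1% were negative, with a median of -0.05. In 189N3 hippocampus the counts ran the other way, with 28 positive and 3 negative and a median of 0.25, against a median of -0.04 and 43.8% positive over all loci, and 0.04 and 58.7% over named loci. The median in Dp(16)1Yey/+ depended on the littermates used. It was 0.03 against littermates 0 and 1 alone and -0.87 against littermates 2 and 3 alone, a split made after the values were seen. It was -0.63 without replicate 0 of Dp(16)1Yey/+ and between -0.57 and -0.27 without any other library. In 189N3 it was -0.01 without replicate 2 of the transgenic group. It was 0.33 and 0.46 without transgenic replicates 0 and 1, and 0.16, 0.45 and 0.11 without littermates 0, 1 and 2. The 2 models have separate littermates, and the difference between their effects, tested as an interaction, had a median of -0.68 over the 31 genes, of which 29 were lower in Dp(16)1Yey/+. That median was 0.08 over all loci and -0.08 over named loci. No locus of 36045 (0%) passed that test, with 957 at an unadjusted p under 0.05 and 0 calls by edgeR or DESeq2.

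**Figure D2:**
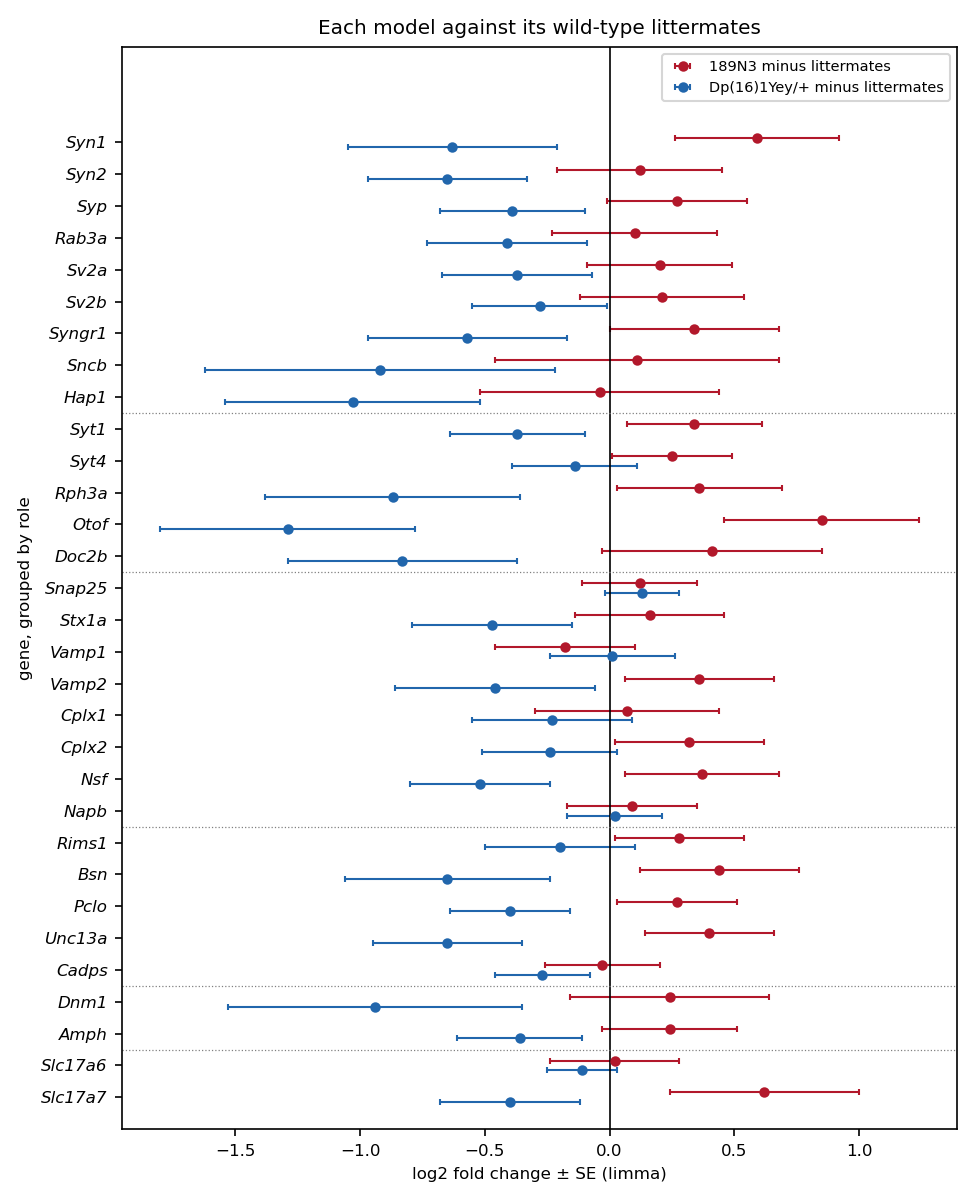
Log2 fold change ± SE of the 31 genes, grouped by role, in 189N3 (red) and Dp(16)1Yey/+ (blue), each against its own wild-type littermates. Blue points lie left of 0 for 28 genes and red points right of 0 for 28 genes, and Otof lies farthest from 0 in both, at -1.29 and 0.85.

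The genes of the vesicle membrane and surface had 9 of 9 negative fold changes in Dp(16)1Yey/+ (median -0.57) and 8 of 9 positive in 189N3 (median 0.20), with none at an unadjusted p under 0.05. Hap1, huntingtin-associated protein 1, is carried on vesicles along axons. It is one of 4 of the 31 genes, with Otof, Dnm1 and Rph3a, that the study lists as lower in Dp(16)1Yey/+; since that list was drawn from these samples, it is no independent evidence of direction. Hap1 measured 592, 197, 277 and 247 scaled fragments in replicates 0 to 3 of Dp(16)1Yey/+ and 308, 295, 1226 and 1244 in the littermates. Littermates 2 and 3 were about 4 times as high as littermates 0 and 1, and 3 of the 4 Dp(16)1Yey/+ libraries were below all littermates, but replicate 0 was not. The log2 fold change was -1.03 ± 0.51 (SE), with an adjusted p of 0.909 by limma and an exact two-sided permutation p of 0.171. In the 189N3 line Hap1 measured 176, 209 and 653 in transgenic mice and 212, 646 and 191 in littermates, 1 high library on each side, and the log2 fold change was -0.04 ± 0.48.

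Rab3a, the most abundant per kb of this role, measured 2363, 1044, 1120 and 1004 scaled fragments in Dp(16)1Yey/+ and 1304, 1165, 2347 and 2454 in the littermates. Replicate 0 was level with the high pair of littermates, and the other 3 libraries were below the low pair. Its log2 fold change was -0.41 ± 0.32, and in 189N3, with 1674, 866 and 2417 against 1388, 1861 and 1113, it was 0.10 ± 0.33. Sncb, beta-synuclein, had the widest range: 29.9, 28.7, 186 and 205 scaled fragments in the littermates of Dp(16)1Yey/+, a ratio of 7.15 between the highest and the lowest. Its Dp(16)1Yey/+ libraries, at 101, 32.9, 17.3 and 42.3, lay within or below that range, at a log2 fold change of -0.92 ± 0.70. The synapsins, which tether vesicles to one another and to actin, had log2 fold changes in Dp(16)1Yey/+ of -0.63 ± 0.42 (Syn1) and -0.65 ± 0.32 (Syn2). In the same comparison, Syp, the abundant vesicle protein synaptophysin, stood at -0.39 ± 0.29, and Syngr1, synaptogyrin 1, at -0.57 ± 0.40. Sv2a and Sv2b, transporter-like glycoproteins of the vesicle, stood at -0.37 ± 0.30 and -0.28 ± 0.27. These 6 genes had positive values in 189N3, from 0.12 for Syn2 to 0.59 for Syn1.

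Among calcium sensors and proteins with C2 domains, 5 of 5 were negative in Dp(16)1Yey/+ (median -0.83) and 5 of 5 positive in 189N3 (median 0.36). Otof encodes otoferlin, a large C2-domain protein needed for vesicle fusion in inner hair cells. It was the one gene of the 31 at an unadjusted p under 0.05 in either model, and was lowly expressed in this tissue. In Dp(16)1Yey/+ that p counts the nearly alike littermates as separate libraries. Otof measured 66.3, 14.1, 36.7 and 29.2 scaled fragments in Dp(16)1Yey/+ against 55.6, 36.6, 130 and 148 in the littermates. The 2 highest libraries were littermates 2 and 3, and replicate 0 of Dp(16)1Yey/+ was above littermates 0 and 1. The log2 fold change was -1.29 ± 0.51, with an unadjusted p of 0.0269 and an adjusted p of 0.909 by limma, where 1.82% of all loci were lower at that unadjusted level; the exact permutation p was 0.143. Against littermates 0 and 1 alone it was -0.49, and against littermates 2 and 3 alone -2.09. In 189N3 mice Otof measured 40.6, 38.3 and 89.3 against 32.9, 40.6 and 16.9 in littermates. Replicate 2 was the highest library of the line, and replicates 0 and 1 lay level with the highest littermate. The log2 fold change was 0.85 ± 0.39, with an unadjusted p of 0.0464 and an adjusted p of 1.0 by limma, where 0.825% of all loci were higher at that level. The smallest exact p that 3 against 3 libraries allow is 0.10, and that of Otof was 0.3. The difference between the models was -2.14 ± 0.75 for Otof (unadjusted p = 0.0113) and -1.04 ± 0.43 for Unc13a (unadjusted p = 0.0279), both with an adjusted p of 0.922 by limma, and 1.12% of all loci were lower in Dp(16)1Yey/+ at the unadjusted level.

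Rph3a, rabphilin 3A, binds Rab3 on the vesicle and phospholipid through its C2 domains. It measured 794, 241, 186 and 296 scaled fragments in Dp(16)1Yey/+ and 337, 310, 1001 and 1139 in the littermates. Replicates 1 to 3 were below all 4 littermates, and replicate 0 was between the pairs. This gave a log2 fold change of -0.87 ± 0.51, with an adjusted p of 0.909 by limma and an exact permutation p of 0.171. With 568, 360 and 932 against 437, 606 and 340, the 189N3 groups overlapped, and the log2 fold change was 0.36 ± 0.33. Syt4 measured 13323, 7230, 9532 and 6481 in Dp(16)1Yey/+ against 7663, 8015, 12300 and 11467, a log2 fold change of -0.14 ± 0.25. Its highest library was of the duplication group, unlike that of the other 4 genes of this role. In the 189N3 line Syt4 measured 17012, 15478 and 26311 against 14097, 17859 and 16354, a log2 fold change of 0.25 ± 0.24. Syt1, the main calcium sensor of fast release, stood at -0.37 ± 0.27 in Dp(16)1Yey/+ and 0.34 ± 0.27 in 189N3. Doc2b, a high-affinity sensor of spontaneous release, stood at -0.83 ± 0.46 and 0.41 ± 0.44.

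**Figure D3:**
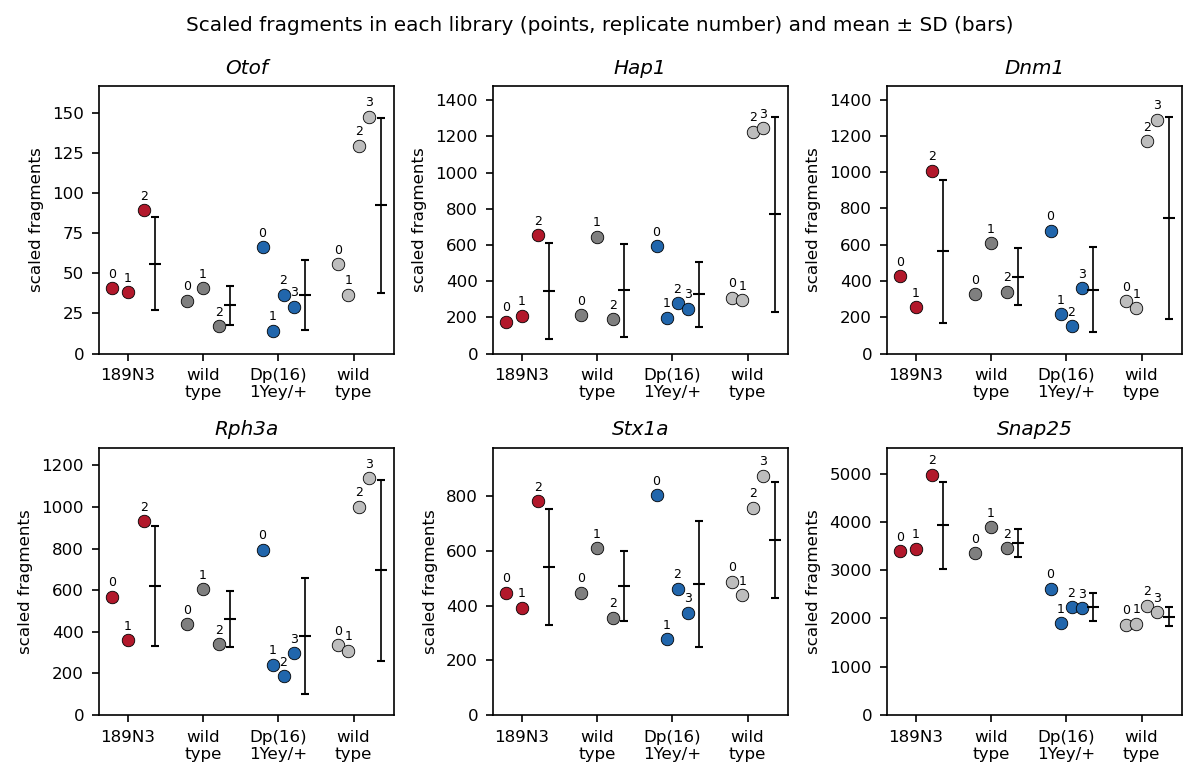
Scaled fragments of Otof, Hap1, Dnm1, Rph3a, Stx1a and Snap25 in each library, labelled with its replicate number, with mean ± SD beside each group. In each of these genes littermates 2 and 3 of Dp(16)1Yey/+ and replicate 2 of 189N3 stand above the rest of their groups, though Snap25 spans only 1869 to 2616 over the whole Dp(16)1Yey/+ line.

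The SNARE proteins, their clamp and their recycling factors had the smallest values of the larger roles, with a median of -0.23 in Dp(16)1Yey/+ (5 of 8 negative) and 0.14 in 189N3 (7 of 8 positive). The 3 genes with a positive value in Dp(16)1Yey/+, Snap25, Napb and Vamp1, all belong here. Snap25, the plasma membrane SNARE whose protein the study placed in a network with the chromosome 21 protein ITSN1, measured 2616, 1898, 2234 and 2213 scaled fragments in Dp(16)1Yey/+ and 1869, 1895, 2262 and 2129 in littermates. The groups lay over each other, with a log2 fold change of 0.13 ± 0.15 and an adjusted p of 0.910 by limma. In the 189N3 line, at 3390, 3442 and 4975 against 3349, 3895 and 3455, it was 0.12 ± 0.23, and 1 transgenic library stood above the rest. Stx1a, syntaxin 1A, the partner of SNAP-25 in the plasma membrane and in the study an interactor of DYRK1A, spread more. It measured 804, 277, 461 and 374 in Dp(16)1Yey/+ against 487, 437, 759 and 875 in littermates, with 2 libraries below all littermates and 1 littermate above all of them, at a log2 fold change of -0.47 ± 0.32 and an exact permutation p of 0.286. In the 189N3 line Stx1a measured 448, 392 and 783 against 448, 611 and 356, a log2 fold change of 0.16 ± 0.30.

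Cplx2 measured 3924, 1837, 2210 and 1835 scaled fragments in Dp(16)1Yey/+ and 2194, 2133, 3348 and 3586 in littermates, with replicate 0 the highest of all, and the log2 fold change was -0.24 ± 0.27. In the 189N3 line its values were 3310, 2291 and 5265 against 2816, 3552 and 2030, and the log2 fold change was 0.32 ± 0.30. Vamp2, the vesicle SNARE of the forebrain, stood at -0.46 ± 0.40 in Dp(16)1Yey/+ and 0.36 ± 0.30 in 189N3. Nsf, the ATPase that takes spent SNARE complexes apart, stood at -0.52 ± 0.28 and 0.37 ± 0.31, while its adaptor Napb stood at 0.02 ± 0.19 and 0.09 ± 0.26. The second complexin, Cplx1, had -0.23 ± 0.32 and 0.07 ± 0.37. Vamp1 spread least among littermates of Dp(16)1Yey/+, at 80.4, 83.1, 79.9 and 77.9, with log2 fold changes of 0.01 ± 0.25 and -0.18 ± 0.28.

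Active zone and priming genes were 5 of 5 negative in Dp(16)1Yey/+ (median -0.40) and 4 of 5 positive in 189N3 (median 0.28). Cadps, a priming factor of dense-core vesicles and the most abundant of the role per kb, measured 4515, 3940, 6187 and 3531 scaled fragments in Dp(16)1Yey/+ and 5843, 5887, 4853 and 4871 in littermates. Here littermates 0 and 1 were the higher pair, the reverse of nearly all other genes, and replicate 2 of Dp(16)1Yey/+ was the highest. Its log2 fold change was -0.27 ± 0.19, and in 189N3, at 3950, 4361 and 5660 against 4836, 5448 and 3933, it was -0.03 ± 0.23. Unc13a, the Munc13 protein that opens syntaxin for priming, had -0.65 ± 0.30 in Dp(16)1Yey/+ (unadjusted p = 0.0520 by limma) and 0.40 ± 0.26 in 189N3. The giant scaffolds Bsn and Pclo stood at -0.65 ± 0.41 and -0.40 ± 0.24 in Dp(16)1Yey/+, and at 0.44 ± 0.32 and 0.27 ± 0.24 in 189N3. Rims1, which ties vesicles to calcium channels, stood at -0.20 ± 0.30 and 0.28 ± 0.26.

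Of the endocytosis genes, Dnm1, the GTPase dynamin 1 that pinches vesicles off, measured 677, 217, 150 and 359 scaled fragments in Dp(16)1Yey/+ and 288, 249, 1171 and 1289 in littermates. Littermates 2 and 3 were 4.57 times as high as littermates 0 and 1 on average, and the Dp(16)1Yey/+ libraries fell on both sides of the low pair. This gave a log2 fold change of -0.94 ± 0.59, with an adjusted p of 0.909 by limma and an exact permutation p of 0.257. Against littermates 0 and 1 alone it was 0.15, and against littermates 2 and 3 alone -2.04. In 189N3, at 427, 257 and 1009 against 326, 607 and 341, it was 0.24 ± 0.40. Amph, amphiphysin, which brings dynamin to the vesicle neck, measured 2157, 1033, 1668 and 1191 in Dp(16)1Yey/+ and 1531, 1505, 2306 and 2250 in littermates, a log2 fold change of -0.36 ± 0.25. Its values in the 189N3 line were 1761, 1970 and 3133 against 1766, 2425 and 1531, a log2 fold change of 0.24 ± 0.27, and in both lines the groups overlapped.

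The vesicular glutamate transporters differed in their spread. Slc17a6 kept to 1419, 1670, 1770 and 1581 scaled fragments in Dp(16)1Yey/+ and 1588, 1705, 1894 and 1743 in littermates, with the pairs close to each other, and a log2 fold change of -0.11 ± 0.14. Its 189N3 values of 1453, 1279 and 2210 overlapped with the 1388, 1898 and 1491 of littermates, at a log2 fold change of 0.02 ± 0.26. Slc17a7 measured 371, 347, 698 and 699 in littermates of Dp(16)1Yey/+, a gap between the pairs that Slc17a6 did not have, and stood at -0.40 ± 0.28 in Dp(16)1Yey/+ and 0.62 ± 0.38 in 189N3.

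The 31 genes varied more within a group than most loci, and they did so together. The SD of log2 values within a group had a median over the 31 genes of 0.60 in 189N3, 0.38 in their littermates, 0.59 in Dp(16)1Yey/+ and 0.51 in their littermates. Named loci with a mean of at least 100 had medians of 0.33, 0.17, 0.31 and 0.21. Littermates 2 and 3 of Dp(16)1Yey/+ were both above littermates 0 and 1 in 29 of the 31 genes, all but Vamp1 and Cadps, as in 33.8% of all loci. Replicate 0 of Dp(16)1Yey/+ was the highest of its group in 28 of 31, as in 27.9% of all loci. Its replicates 1 to 3 were all below littermates 2 and 3 in 27 of 31, as in 20.8% of all loci. In the 189N3 line, replicate 2 of the transgenic group was the highest of the 6 libraries in 30 of 31 genes, all but Vamp1, as in 32.5% of all loci. These counts describe the libraries after their values were seen, and genes within a library are not independent.

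**Figure D4:**
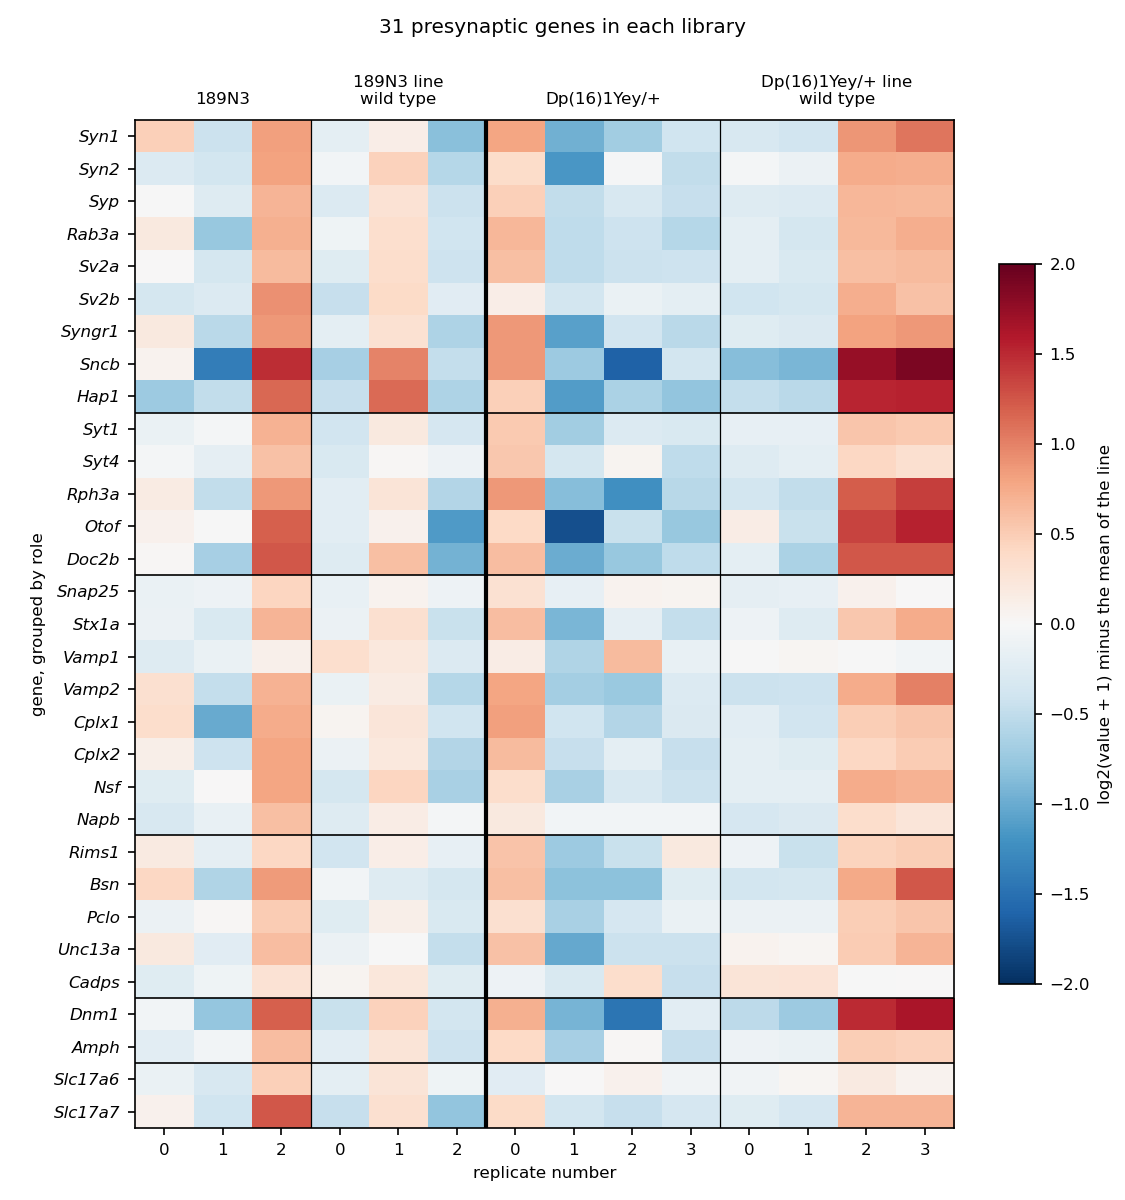
Log2(value + 1) of each presynaptic gene in each library minus its mean over the libraries of the line, with genes grouped by role and replicate numbers below. Replicate 2 of 189N3, replicate 0 of Dp(16)1Yey/+ and littermates 2 and 3 of Dp(16)1Yey/+ are red in nearly all rows, and Vamp1, Cadps and Slc17a6 depart from that pattern.

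Other genes of the nerve terminal lay the same way. Of 98 further presynaptic genes found in the table, 95 were tested. In 189N3 79 were positive and 16 negative (median 0.19), and in Dp(16)1Yey/+ 15 were positive and 80 negative (median -0.24), with 0 called. At an unadjusted p under 0.05 by limma, 2 were higher in 189N3 and 1 lower in Dp(16)1Yey/+. Of all loci, 0.825% were higher in 189N3 and 1.82% lower in Dp(16)1Yey/+ at that level. Synj1, the lipid phosphatase synaptojanin 1, and Itsn1, the endocytic scaffold intersectin 1, lie in the duplicated stretch. Itsn1 measured 10132, 3687, 7334 and 6270 scaled fragments in Dp(16)1Yey/+ and 5543, 5422, 6173 and 6553 in littermates, so replicate 1 was below all of these, and the log2 fold change was 0.12 ± 0.26. Synj1 measured 3275, 1295, 2289 and 2390 against 1708, 1672, 2162 and 2314, again with replicate 1 the lowest, a log2 fold change of 0.17 ± 0.25. Of the 95, Cacna1e, the pore of R-type calcium channels, was the one gene whose groups did not overlap in 189N3, with 3277, 3639 and 4399 against 3159, 3272 and 2724, a log2 fold change of 0.30 ± 0.22 and an adjusted p of 1.0 by limma. Over all loci 4.98% did not overlap in 189N3, so the list held fewer such genes than that share.

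Some lists of cell type markers varied with the presynaptic genes across libraries and others did not. Pan-neuronal genes outside the terminal were positive for 11 of 11 genes in 189N3 (median 0.25 on the log2 scale) and negative for 8 of 11 in Dp(16)1Yey/+ (median -0.26). Their mean distance from the line mean was 0.61 in replicate 2 of 189N3, 0.52 in replicate 0 of Dp(16)1Yey/+ and 0.42 and 0.45 in littermates 2 and 3, beside 0.77, 0.49, 0.69 and 0.75 for the 31 genes. Markers of striatal neurons were positive for 9 of 12 tested in 189N3 (median 0.29) and negative for 11 of 13 in Dp(16)1Yey/+ (median -0.36). The summed level of the 14 markers of striatal neurons, another region of the forebrain, ran from 3001 to 4840 scaled fragments in 189N3 and from 2575 to 2918 in their littermates, and from 2531 to 4244 in Dp(16)1Yey/+ and 2613 to 6169 in their littermates. On the log2 scale these markers stood at 1.72 and 1.83 above the line mean in littermates 2 and 3 and at -1.47 and -1.14 in littermates 0 and 1. In replicate 1 of Dp(16)1Yey/+, where the 31 genes stood at -0.68, they stood at 0.41. None of the defining markers was at 0: the adenosine receptor gene Adora2a measured 18.5, 25.7, 89.6 and 119 in littermates 0 to 3 of Dp(16)1Yey/+, and Penk, proenkephalin, 17.5, 27.7, 145 and 163. Hippocampal identity genes were present in every library, with summed levels from 22519 to 32957, and medians of 0.05 in 189N3 and -0.38 in Dp(16)1Yey/+.

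Progenitor and dividing-cell genes (18 of 18 tested) had medians of -0.12 in 189N3 and 0.06 in Dp(16)1Yey/+, and their summed level reached 94471 in replicate 1 of Dp(16)1Yey/+, against 51989 to 72851 scaled fragments in the other 7 libraries of the line. On the log2 scale, erythroid genes stood at -1.07, 2.19, 0.24 and 0.95 in replicates 0 to 3 of Dp(16)1Yey/+, opposite in sign to the 31 genes. In littermates 0, 1 and 3 of Dp(16)1Yey/+ they had the same sign as the 31 genes, at -1.18, -1.22 and 0.59. In littermate 2 they stood at -0.49, with the opposite sign. Astrocyte markers lay between 0.24 and 0.36 above the line mean in the 4 littermates of Dp(16)1Yey/+, with no gap between the pairs. In replicates 0 to 3 of Dp(16)1Yey/+ they stood at 0.42, -0.95, -0.23 and -0.43, with the signs of the 31 genes. Markers of the oligodendrocyte lineage, which are not neuronal, also varied with the 31 genes. They stood at 0.83 in replicate 2 of 189N3 and at 0.73, -0.61, -0.73 and -0.20 in Dp(16)1Yey/+. In littermates 0 to 3 of Dp(16)1Yey/+ they stood at -0.12, -0.28, 0.62 and 0.60. Erythroid genes were 6 of 6 lower in 189N3 (median -1.32, 0 called). Each was at an unadjusted p under 0.05 by limma, as were 376 of 35899 loci on the lower side. Groups did not overlap in 5 of the 6, against 4.98% of all loci. In Dp(16)1Yey/+ 6 of 6 were higher (median 1.23), with 1 at that unadjusted level, as were 616 of 36024 loci on the higher side. Medians in 189N3 and Dp(16)1Yey/+ were 0.19 and -0.47 for astrocyte markers, 0.44 and -0.50 for the oligodendrocyte lineage, -0.07 and -0.13 for microglia, 0.03 and -0.45 for endothelium and pericytes, -0.01 and -0.22 for interneurons, and 0.37 and 0.01 for neocortical projection neurons. Of 6 inner ear hair cell markers, the other tissue known for otoferlin, 3 were found, and Tmc1 was at 0 in at least 1 library. The part of cell composition, dissection and stage in the presynaptic values was not tested.

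**Figure D5:**
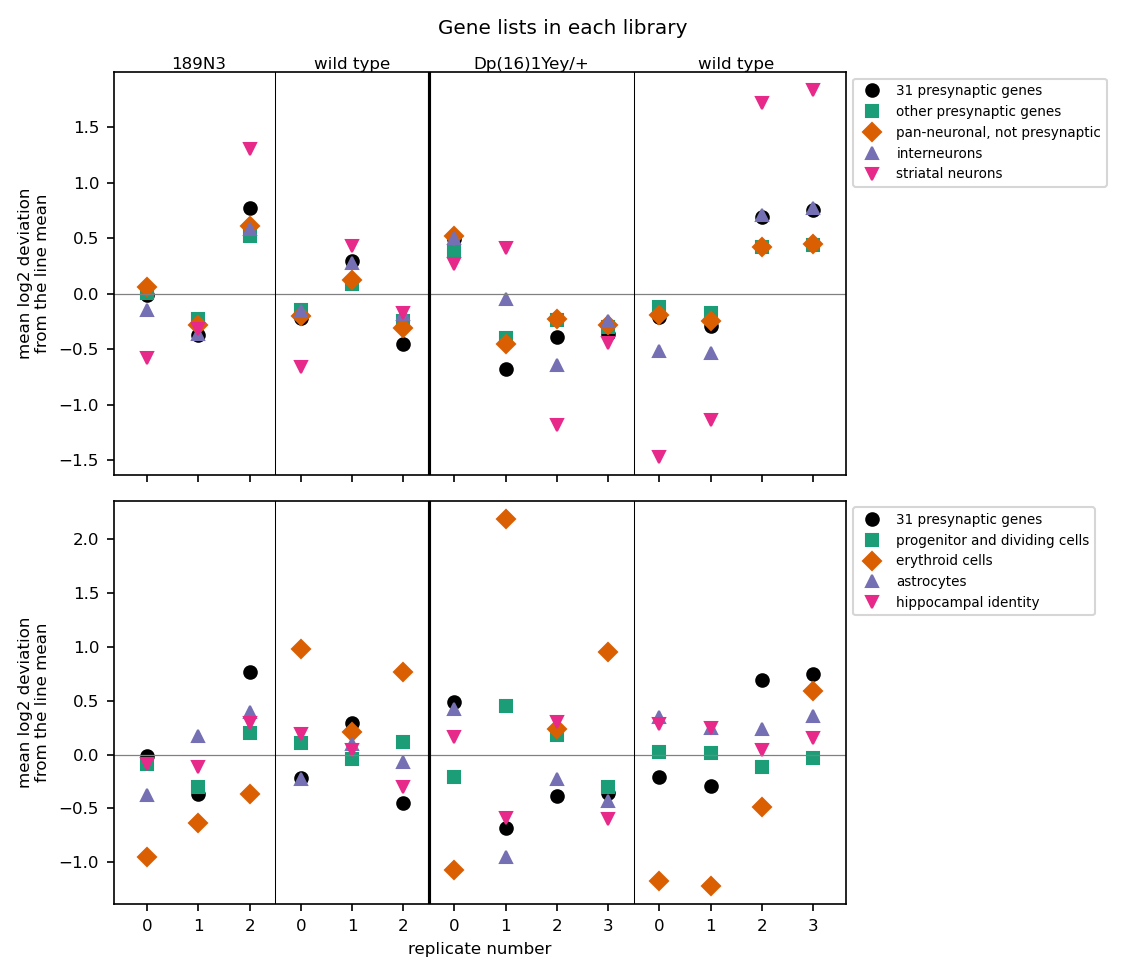
Mean log2 distance from the line mean, per library, of the 31 presynaptic genes (black) and of other gene lists, with neuronal lists above and other lists below. The pan-neuronal list stands at 0.61 beside 0.77 for the presynaptic genes in replicate 2 of 189N3. The oligodendrocyte lineage, not drawn, stood at 0.83 in that library. Striatal markers reach 1.72 and 1.83 in littermates 2 and 3 of Dp(16)1Yey/+.

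The isoform table held 125 isoforms of the 31 genes. None was called among 101 tested in 189N3 and 100 in Dp(16)1Yey/+ (limma, adjusted p under 0.05), where 0.0366% and 0.0214% of all isoforms tested were called. At an unadjusted p under 0.05 were 4 and 6 of them, beside 2.56% and 3.48% of all isoforms tested. Isoform values are estimated shares of the locus, and a value at or near 0 can be a failed estimate. An Otof isoform that holds 66.5% of the locus over all libraries, TCONS_00073147, was at 40.1, 38.1 and 46.4 in 189N3 and at 0.0261, 0.0333 and 0.0163 in littermates, while TCONS_00073148 was at 32.9, 29.1 and 16.9 in the littermates and at 0, 0.145 and 0.0101 in 189N3 (adjusted p of 0.189 and 0.624 by limma). Between the nearly alike littermates 0 and 1 of Dp(16)1Yey/+, however, TCONS_00073147 went from 55.6 to 0.0083 and TCONS_00073149 from 0.0203 to 36.6. Nearly the whole locus, at 55.6 and 36.6 in these libraries, was thus given to a different isoform in each. Of Unc13a, the minor isoform TCONS_00093796 was between 22.3 and 26.4 in the 4 littermates of Dp(16)1Yey/+ and between 0.00251 and 0.0115 in the 4 Dp(16)1Yey/+ libraries (adjusted p = 0.144 by limma). This isoform holds 0.6% of the locus. In the wild-type littermates of 189N3 it was also near 0, at 0.00277, 0.00197 and 0.000448. In 189N3 it was at 0.0027, 0.00262 and 19.6, so the wild-type libraries of the lines differed as well.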

How the data were processed

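RNA-seq was read from 14 libraries of mouse embryonic hippocampus. Per the labels and the study's methods, the authors prepared stranded total RNA libraries (the labels list polyA RNA), mapped paired-end reads to mm10 with Bowtie and TopHat, joined the assemblies that Cufflinks made into 1 set of loci, and corrected for fragment bias and for reads with several matches. Tool versions are not given in the sources used here. The deposited signal values of the gene table are fragments of each locus after division by the size factor of the library, and 100% of low nonzero values were whole multiples of 1 step (within 0.1), so fragments were recovered. Isoform signal values are estimated shares on that scale. The authors describe dropping transcripts outside the reference, but unnamed loci are in the tables and were kept. Whether counting used strand is not stated, and 10 of the 31 genes share exon bases with another annotated gene.

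Locus numbers of the name map are shifted against the tables, so loci were matched by isoform sums, and 17377 were named. Coordinates and exon lengths are from GENCODE vM21 (GRCm38). Values were tested as log2(value + 1), which understates changes of low genes, over loci with a mean of at least 10, by limma 3.58.1 (R 4.3.3) with an intensity trend and Benjamini-Hochberg adjustment at 0.05, each model against its littermates, and the difference of the models as an interaction over 4 groups. For single genes an exact two-sided permutation test was added (SciPy 1.17.1), whose smallest p is 0.10 for 3 against 3 and 0.0286 for 4 against 4. edgeR 4.0.16 and DESeq2 1.42.0 on recovered fragments, other filters, pseudocounts and normalizations, a replicate block and each library left out were alternatives. The scripts were tested on simulated data.

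The genes, lists and tests were chosen with earlier results of these data known. All 31 genes could be named in the text; those with full values were the study's own genes among them, Stx1a, Snap25 and the most abundant per kb in each role, and further presynaptic genes were named for the duplicated stretch or for groups that did not overlap. Sncb, Vamp1, Slc17a7, Adora2a and Penk were given values after these were seen. No library was left out. Depth gives few fragments behind Otof, Sncb and Vamp1. The spread between libraries limits the precision as well, also for Sncb, whose SD of log2 values was 1.56 in the littermates of Dp(16)1Yey/+.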

Additional observations from a re-analysis of the deposited data

Results flagged for a closer look

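In Dp(16)1Yey/+, replicate 0 stood far from the other 3 libraries of its group in 4 of the 31 genes: Rab3a at 2363, Napb at 2251, Sv2a at 2253 and Slc17a7 at 567 scaled fragments. The gap to the nearest library, on the log2 scale, took 0.87, 0.99, 0.90 and 0.86 of the whole range of the group in these genes. Chance alone marks about 1 group in 20 in this way, and values of these genes varied together, so the 4 are not separate events. No gene was marked in this way in the littermates of Dp(16)1Yey/+, whose nearly alike pairs leave little room for a single library to stand apart. Groups of 3 were not examined. No difference between the models passed the test.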

How the results depend on the processing

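No presynaptic gene was called under any alternative. The count of all loci called in 189N3, 0 in the report, was 3 with median-ratio size factors and 15 with DESeq2, and 0 to 28 when 1 library was left out, 28 without littermate 1 and 2 without littermate 0 of 189N3. In Dp(16)1Yey/+ it was 8 with DESeq2 and 0 to 3 when 1 library was left out, 3 without replicate 1 of Dp(16)1Yey/+, and for the difference between the models 0 to 1, the 1 also without replicate 1 of Dp(16)1Yey/+. With the replicate block, 72 loci were called in 189N3 and 0 in Dp(16)1Yey/+, none of them presynaptic; the labels do not say that equal numbers pair the samples, and the deviations of same-numbered libraries correlated between -0.45 and -0.03 over all loci, with no library closest to its own number.

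The median over the 31 genes in 189N3 stayed between 0.20 and 0.33 under alternatives that kept all libraries, and ran from -0.01 to 0.46 with 1 library left out. For Dp(16)1Yey/+ it was between -0.45 and -0.40 with all libraries and from -0.63 to -0.27 with 1 left out.

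Isoforms of the 31 genes called in 189N3 were 2 without a filter and 2 without the trend, both of Otof each time. The other model had 1 without a filter and 1 without the trend, of Unc13a, 2 against littermates 2 and 3 alone, of Cplx1 and Slc17a6, and 0 to 1 with 1 library left out. edgeR, DESeq2 and the sum of all rows of a symbol were not run on isoforms.

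Single log2 fold changes kept their sign in 1318 of 1380 repeats, and none of the changes of sign was of a called gene. In 189N3, Slc17a6 was -0.05 after quantile normalization, and Cadps and Hap1 were 0.01 and 0.03 in DESeq2. Of the Dp(16)1Yey/+ values, Napb was -0.01 and Vamp1 -0.02 with median-ratio size factors, and Napb was -0.05 in edgeR and -0.05 in DESeq2. Against littermates 0 and 1 alone, a choice made after the values were seen, Dp(16)1Yey/+ stood at Syn1 0.03, Syp 0.07, Syt4 0.16, Vamp1 -0.01, Vamp2 0.19, Rab3a 0.07, Rims1 0.16, Bsn 0.03, Cplx1 0.18, Cplx2 0.10, Dnm1 0.15, Sv2a 0.06, Sv2b 0.24, Slc17a7 0.08 and Sncb 0.43, and against littermates 2 and 3 alone Napb stood at -0.28. With 1 library left out, values that changed sign in 189N3 ran over these ranges: Syn2 -0.26 to 0.37, Syp -0.001 to 0.48, Snap25 -0.06 to 0.22, Stx1a -0.14 to 0.37, Rab3a -0.24 to 0.50, Cplx1 -0.29 to 0.59, Dnm1 -0.30 to 0.69, Napb -0.19 to 0.28, Sv2a -0.07 to 0.42, Sv2b -0.20 to 0.45, Slc17a6 -0.21 to 0.18, Amph -0.01 to 0.43, Syngr1 -0.01 to 0.70, Sncb -0.60 to 0.83, Doc2b -0.12 to 0.84, Cadps -0.18 to 0.08 and Hap1 -0.63 to 0.52. The ranges in Dp(16)1Yey/+ were Syt4 -0.34 to 0.01, Vamp1 -0.20 to 0.21, Rims1 -0.43 to 0.003 and Napb -0.09 to 0.14. Loci of Dp(16)1Yey/+ at an unadjusted p under 0.05 numbered 4567 without its replicate 0. The cause of these shifts was not tested.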
